A study of Mus musculus with 8 samples.

Results

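Interferon-stimulated genes of the type I and type II response were examined in the lumbar spinal cord of male SOD1G93A mice, a transgenic model of amyotrophic lateral sclerosis that expresses mutant human superoxide dismutase. The 48 genes were taken from a written list of gene symbols, and all 48 were found among the 55291 genes of the count table and among the 19470 that passed the filter on low counts. RNA-seq was performed on poly(A) RNA of whole lumbar cord from 4 SOD1G93A Agerfl/fl Cx3cr1Cre/+ mice (the Ager-deleted mice, with the IDs E1776, E5231, E5248, E5568) and 4 SOD1G93A Ager+/+ Cx3cr1Cre/+ mice (the Cre controls, with the IDs E5386, E5642, E6578, E6732), all on the C57BL/6J background (given as C57BL/6 in the strain label). Ager encodes RAGE, the receptor for advanced glycation end products, and the comparison asks how its loss from microglia alters the diseased cord. All 8 mice, controls included, carried the SOD1G93A transgene, had 1 Cx3cr1 allele replaced by a tamoxifen-inducible Cre, and received tamoxifen (TAM, 0.2 µg per injection); the sample labels place TAM at 12 weeks and tissue collection at 120 days, whereas the study describes these cords as taken at the humane endpoint. Cre was driven from the Cx3cr1 locus, which is active in microglia and also in monocytes and other macrophages, and the whole cord also holds neurons, astrocytes, oligodendrocytes and endothelial cells, in which Cx3cr1 is not normally active.

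Type I interferons (the interferon-alpha family and interferon-beta) bind a receptor of Ifnar1 and Ifnar2, and the kinases Jak1 and Tyk2 then activate a complex that includes Stat2 and Irf9 and binds the interferon-stimulated response element (ISRE) in target promoters. Type II interferon (interferon-gamma) acts through Ifngr1 and Ifngr2 and leads to binding at the gamma-activated site (GAS). The induced genes encode RNA and DNA sensors, inhibitors of viral translation, membrane proteins that block viral entry and release, GTPases that attack pathogen vacuoles, and Irf7, which amplifies the response. In the central nervous system, microglia, astrocytes, endothelial cells and neurons can all respond to interferon, and interferon-responsive microglia have been described in ageing and degeneration.

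The promoters of these genes are shown first because the ISRE is the sequence named for this response. RefSeq promoter windows on GRCm38.p6, each running from 250 bases before to 50 bases after an annotated start, were matched by symbol for 37 of the 48 genes. The ISRE core was searched as GAAANNGAAA on both strands, a longer ISRE as GAAANNGAAACT, which lies within a core match, and the GAS as TTCNNNGAA, which can overlap a core match. The core was found in 22 of the 37 genes (59.5%) and in 3.99% of the 27025 genes with a window. The longer ISRE was found in 13 (35.1%, against 0.303% of all genes), the GAS in 8 (21.6%, against 9.55%) and both the core and the GAS in 6 (16.2%, against 0.614%). These shares are a description of a list that was written from knowledge of the response, and a match is not evidence of binding. The stretches below surround the core in 8 of these windows, given 5′ to 3′ on the strand of the gene with the core in capitals, and TTTCNNTTTC is the core read on the other strand. They were chosen to cover a signal transducer, the ISG15 and IFIT genes, membrane effectors and the GTPases.
Stat2, chr10:128270266-128270295, + strand: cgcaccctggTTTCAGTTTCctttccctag
Isg15, chr4:156200865-156200906, - strand: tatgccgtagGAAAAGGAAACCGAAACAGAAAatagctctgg
Ifit1, chr19:34640775-34640823, + strand: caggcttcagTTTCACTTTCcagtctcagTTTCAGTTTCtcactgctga
Ifit3, chr19:34583363-34583426, + strand: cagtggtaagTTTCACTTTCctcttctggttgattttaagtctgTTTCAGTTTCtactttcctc
Bst2, chr8:71537577-71537612, - strand: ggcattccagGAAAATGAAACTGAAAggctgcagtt
Rsad2, chr12:26456553-26456582, - strand: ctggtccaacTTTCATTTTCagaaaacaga
Gbp3, chr3:142559989-142560024, + strand: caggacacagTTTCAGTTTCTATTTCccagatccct
Igtp, chr11:58199512-58199541, + strand: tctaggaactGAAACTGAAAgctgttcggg
Isg15 held 3 overlapping core matches, the first beginning 78 bases before the start, Bst2 and Gbp3 held 2 overlapping matches each, and Ifit1 and Ifit3 held 2 separate matches. The stretch in the Ifit3 window recurred letter for letter in the window of Ifit3b, its neighboring duplicate. The letters of the core were not found in the windows of Irf7, Irf9, Oasl2, Samd9l, Cmpk2 or Lgals3bp.

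Counts on genes totalled 31148047 to 40324897 per mouse, and 3 counts corresponded to between 0.073 and 0.0975 CPM (read counts scaled by library size and TMM factor), a floor that covers counting error only. Ager, measured over the whole cord, was at 0.889 to 1.51 CPM in Ager-deleted mice and 1.53 to 2.41 CPM in controls, with a log2 fold change of -0.81 (SE 0.22; adjusted p = 0.252 in edgeR's exact test), and the p of 0.0286 in a two-sided exact permutation test is the lowest that 4 mice against 4 can give. Markers of neurons, oligodendrocytes, astrocytes and microglia summed to 4027 to 5276, 20810 to 23292, 13022 to 18515 and 1573 to 2654 CPM per mouse. A list of 16 skeletal muscle genes summed to 1111 and 1698 CPM in the controls E5386 and E5642 and to 67.1 to 94.1 CPM in the other mice. Liver genes stood apart in the control E6732, at 4.26 on the log2(CPM + 1) scale above their mean over the mice.

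No interferon-stimulated gene differed between genotypes past the threshold in any test (adjusted p under 0.05). Of the 48, 0 were called by edgeR's exact test (0.0719% of all tested genes were called), and 0 by edgeR's quasi-likelihood test (0.00514%). For both edgeR tests, 0 of 48 at the adjusted threshold is near the share over all tested genes. The counts at an unadjusted p under 0.05 were also 0 and 0, where 4.26% and 6.71% of all tested genes reached it. DESeq2, limma-voom and common with tagwise dispersions called 0 of the 48 as well, and their shares over all tested genes are not given here. The genotypes overlapped in each of the 48 genes, whereas 1.91% of all tested genes were lower and 1.97% higher in every Ager-deleted mouse than in every control. The log2 fold change of Ager-deleted over control mice was above 0 for 35 of the 48 (52% of all tested genes) and below 0 for 13. Its median was 0.06, against 0.01 for all tested genes, and it ran from -0.36 for Samd9l to 0.41 for Irf7. The 95% interval lay between -1 and 1 for 40 of the 48 genes and was widest for Irf7 (-0.67 to 1.48).

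**Figure D1:**
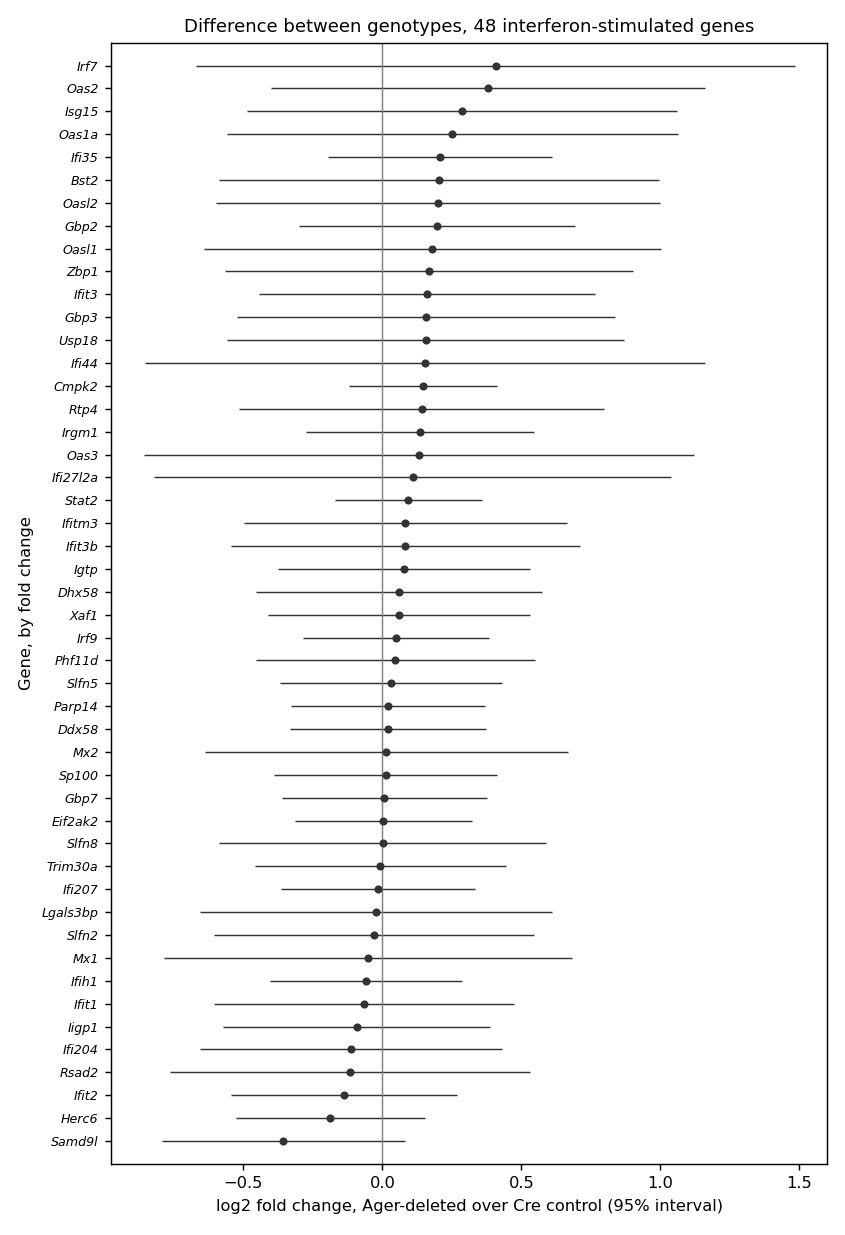
Log2 fold change of Ager-deleted over Cre control mice (x axis) for each of the 48 genes (y axis, ordered by the fold change), with points for the quasi-likelihood estimate and bars for its 95% interval (n = 4 mice per genotype). Every interval includes 0, from Samd9l at -0.36 to Irf7 at 0.41.

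The median was small and changed sign with the mice included. Without E5231 the median log2 fold change was -0.21, without E5248 it was 0.17, and without both it was -0.09, a comparison chosen after the values were seen. Without E5231, 4 of the 48 genes (Samd9l, Ifi204, Ifitm3 and Ifi27l2a) were lower in each remaining Ager-deleted mouse than in each control, as were 3.64% of all tested genes in the same mice. Without both mice 1 of the 48, Samd9l, was lower, as were 8.31% of all tested genes. No adjusted p of a named gene reached the threshold in these fits, the smallest being 0.0584 for Samd9l without E5231 (edgeR's exact test). Leaving out the controls with skeletal muscle RNA, E5386 and E5642, gave a median of -0.03, and a skeletal muscle covariate gave -0.04. In RNA of whole cord, fewer responding cells and less RNA per cell cannot be told apart.

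The 48 genes varied widely among the Ager-deleted mice. E5231 had the highest level of the 8 mice in 47 of the 48 genes (17.1% of all tested genes were highest in it), and E5248 had the lowest in 40 (18.1%), with 39 genes showing both. The exception was Samd9l, which was highest in the control E6732 at 23.98 CPM and nearly as high in E5231 at 23.96 CPM. E5231 exceeded every control in 47 genes, as in 26.8% of all tested genes, and E5248 lay below every control in 45, as in 25.3%. The ratio of E5231 to E5248 had a median of 2.38 over the 48 genes and 0.995 over all tested genes, and ran from 1.33 for Cmpk2 to 5.36 for Irf7. These 2 mice were picked out after their values were seen, and the counts describe these libraries.

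**Figure D2:**
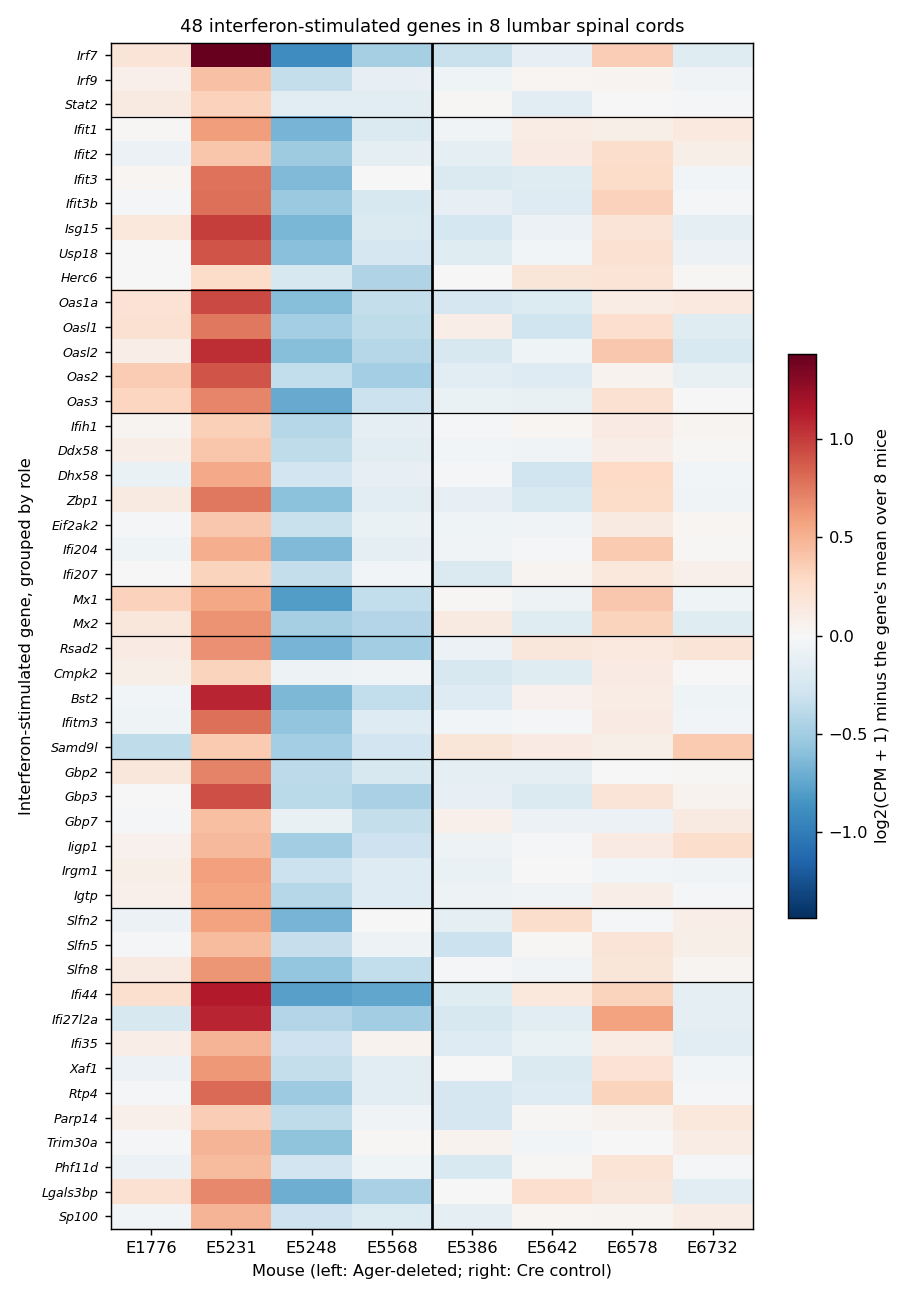
Each row is 1 of the 48 genes, grouped by role, and each column 1 mouse (4 Ager-deleted at left, 4 Cre control at right); color gives log2(CPM + 1) minus the mean of the gene over the 8 mice. E5231 is above the mean of the gene in all 48 rows and E5248 below it in all 48.

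Relative to the mean of the controls, the median level over the 48 genes was 1.53 times in E5231, 1.02 times in E1776, 0.855 times in E5568 and 0.669 times in E5248. E1776 lay within the control range in 35 genes, whereas E5568 lay below every control in 33. Averaged over the genes as log2(CPM + 1) minus the mean of each gene, E5231 stood at 0.64, E1776 at 0.05, E5568 at -0.24 and E5248 at -0.47 among the Ager-deleted mice, and E6578 at 0.17, E6732 at -0.00, E5642 at -0.05 and E5386 at -0.10 among the controls. The controls were thus nested within the spread of the Ager-deleted mice, and E6578 was the highest control in 34 of the 48 genes. The highest control exceeded the lowest by a median of 1.32 times. The SD of log2(CPM + 1) was larger among Ager-deleted than among control mice in all 48 genes (63.3% of all tested genes), with medians of 0.50 and 0.16, against 0.14 and 0.11 over all tested genes.

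**Figure D3:**
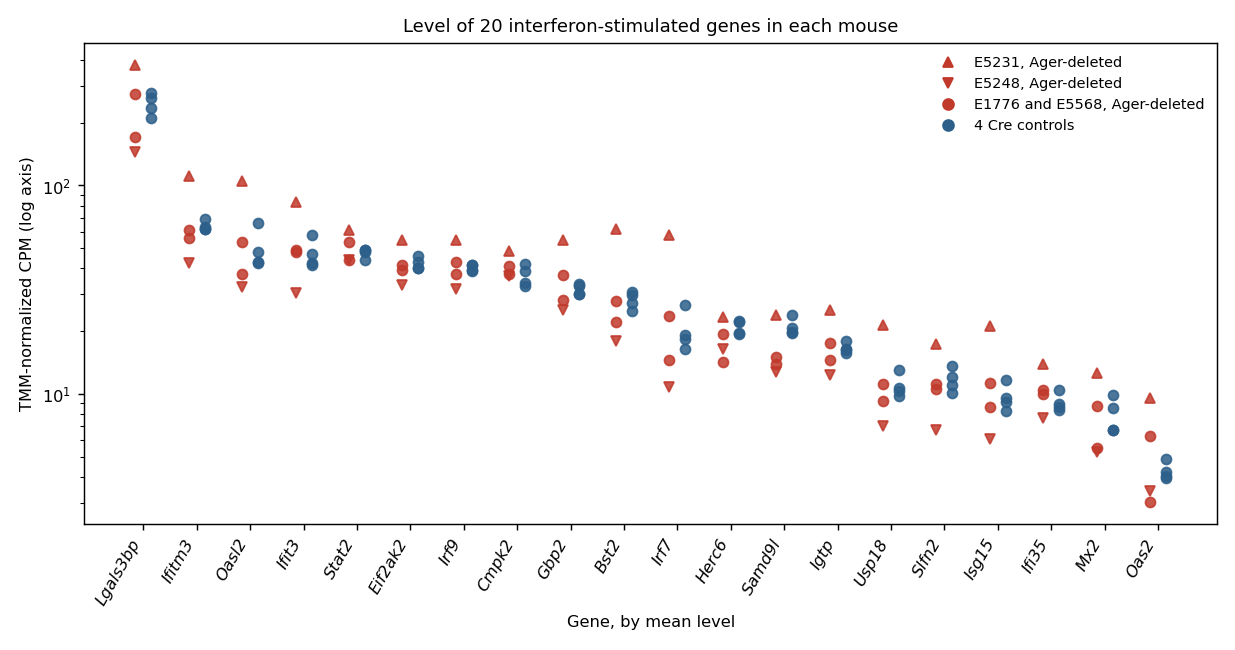
TMM-normalized CPM (log axis) of the 20 genes described by mouse, ordered by mean level, with Ager-deleted mice in red (E5231 as an upward and E5248 as a downward triangle) and Cre controls in blue. E5231 is the highest of the 8 mice for each gene but Samd9l, and the controls lie between the Ager-deleted mice E5231 and E5248 for most genes.

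The signal transducers of the pathway were Irf7, Irf9 and Stat2. Irf7 (chromosome 7, 141262706 to 141266481 on GRCm38, reverse strand), a transcription factor that is itself induced and drives further interferon production, was at 23.6, 57.6, 10.8 and 14.6 CPM in Ager-deleted mice (here and below in the order E1776, E5231, E5248, E5568) and at 16.4, 19.1, 26.8 and 18.3 CPM in controls (in the order E5386, E5642, E6578, E6732). E5231 lay above and E5248 below every control, and the means of 26.6 ± 21.4 and 20.1 ± 4.57 CPM (SD, n = 4 each) differed by a log2 fold change of 0.41 (SE 0.44; exact two-sided permutation test, p = 0.886). Without E5231 its log2 fold change was -0.30. Irf9, the DNA-binding subunit of the complex on the ISRE, was at 42.8, 54.6, 31.9 and 37.5 CPM in Ager-deleted mice and at 39.0, 41.4, 41.6 and 39.2 CPM in controls. Stat2, its partner, was at 53.3, 61.4, 43.8 and 43.8 CPM in Ager-deleted mice and at 49.3, 43.7, 48.8 and 47.7 CPM in controls. Both covered a narrower range than Irf7, with log2 fold changes of 0.05 (SE 0.14) and 0.09 (SE 0.11), and for Stat2 the lowest mouse was the control E5642. Irf7 overlaps Phrf1 on the opposite strand and Irf9 overlaps Rnf31 on its own, and the strand setting of the counting is not given in the sources used here.

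The IFIT genes encode proteins that bind viral RNA lacking host cap methylation, and 4 of them lie in a cluster on chromosome 19 between 34550694 and 34650009. Ifit3, with the highest level per kilobase of exon in this group (28.6 CPM per kilobase), was at 49.0, 82.9, 30.6 and 48.2 CPM in Ager-deleted mice and at 41.4, 42.4, 58.2 and 46.7 CPM in controls, a log2 fold change of 0.16 (SE 0.25). E5231 lay above and E5248 below every control, as they did for Ifit1, Ifit2 and Ifit3b. For Ifit3, E1776 and E5568 lay within the range of the controls. Ifit3 shares 31.7% of its 100-base transcript stretches with Ifit3b, so reads of this pair may have been split or lost in counting. Isg15, a ubiquitin-like modifier that is conjugated to proteins, was at 11.3, 21.1, 6.07 and 8.61 CPM in Ager-deleted mice and at 8.31, 9.51, 11.7 and 9.14 CPM in controls (log2 fold change 0.29, SE 0.32). Usp18, the protease that removes Isg15 and restrains the type I receptor, was at 11.1, 21.5, 6.97 and 9.20 CPM and at 9.71, 10.7, 13.0 and 10.3 CPM in the same order. The modifier and its protease thus ran in parallel over the mice, with ratios of E5231 to E5248 of 3.47 and 3.08. Herc6, the main mouse ligase for Isg15, had a flatter profile, at 19.3, 23.3, 16.4 and 14.1 CPM in Ager-deleted mice and 19.3, 22.0, 22.4 and 19.6 CPM in controls. Its log2 fold change was -0.19 (SE 0.14; unadjusted p = 0.240 in edgeR's exact test), and its lowest mouse was E5568.

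The oligoadenylate synthetases sense double-stranded RNA and make the oligoadenylates that activate RNase L. The log2 fold changes of all 5 genes lay above 0, between 0.13 for Oas3 and 0.38 for Oas2, with 0 called. Oasl2, a synthetase-like member and the most abundant per kilobase, was at 53.4, 105, 32.4 and 37.6 CPM in Ager-deleted mice and at 42.6, 47.8, 65.7 and 42.8 CPM in controls. Oas2 was at 6.25, 9.52, 3.41 and 3.02 CPM in Ager-deleted mice and at 4.05, 3.95, 4.84 and 4.23 CPM in controls (SE of the log2 fold change 0.32; unadjusted p = 0.262 in edgeR's exact test). For Oasl2, E5231 lay above all controls and E1776 within their range, and for Oas2 both of these mice lay above all controls. E5248 and E5568 lay below all controls in both genes. Without E5231 the log2 fold change of Oas2 was -0.01. Oas1a shares 40.9% of its 100-base stretches with Oas1g, and Oas3, the lowest of the 48 genes at a mean of 1.92 CPM, had as few as 25 counts in a mouse.

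Sensors of nucleic acid comprised Ifih1 (MDA5), Ddx58 (RIG-I), Dhx58 (LGP2), Zbp1, Ifi204 and Ifi207, with Eif2ak2 (PKR), the kinase that halts translation on double-stranded RNA. Their log2 fold changes lay between -0.11 for Ifi204 and 0.17 for Zbp1, and each 95% interval lay between -1 and 1. Eif2ak2 was at 41.6, 54.9, 33.5 and 39.3 CPM in Ager-deleted mice and at 40.1, 40.4, 45.9 and 42.7 CPM in controls, with genotype means of 42.3 ± 9.07 and 42.3 ± 2.70 CPM (SD, n = 4 each) and a log2 fold change of 0.00 (SE 0.13). The means coincided while the SD of the Ager-deleted mice was the larger. Zbp1, a sensor of Z-form nucleic acid that can trigger necroptosis, had the widest ratio of E5231 to E5248 in this group (3.14) and Ifi207 the narrowest (1.63).

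The Mx genes encode dynamin-like GTPases that block viral replication, and Mx1 is defective in most laboratory mouse strains. Mx2, annotated as a polymorphic pseudogene, was at 8.79, 12.6, 5.25 and 5.51 CPM in Ager-deleted mice and at 8.53, 6.73, 9.85 and 6.74 CPM in controls, a log2 fold change of 0.01 (SE 0.27). The log2 fold change of Mx1 was -0.05 (SE 0.30), and both genes were highest in E5231 and lowest in E5248.

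Among effectors at membranes and on nucleotides, Ifitm3, which blocks the fusion of enveloped viruses, had the highest level per kilobase of the 48 genes (96.9 CPM per kilobase of exon). It was at 61.0, 111, 42.6 and 55.7 CPM in Ager-deleted mice and at 61.6, 63.0, 69.0 and 61.7 CPM in controls. The controls lay within a narrow band, E5231 lay far above it, E5248 and E5568 below it and E1776 just below its lower edge. Bst2 (tetherin), which holds budding virus at the cell surface, was at 27.8, 62.1, 17.9 and 22.2 CPM in Ager-deleted mice and at 25.0, 29.9, 30.8 and 27.2 CPM in controls (log2 fold change 0.20, SE 0.32). Cmpk2, a mitochondrial nucleotide kinase, lies next to Rsad2 (viperin) on chromosome 12 in the opposite direction. Cmpk2 was at 41.1, 48.7, 36.8 and 37.5 CPM in Ager-deleted mice and at 32.8, 34.2, 42.2 and 39.1 CPM in controls, and varied least between E5231 and E5248 (1.33 times, against 2.68 times for Rsad2). Samd9l (chromosome 6, 3372257 to 3399572, reverse strand), a restriction factor that limits translation and growth, had the lowest log2 fold change of the 48, -0.36 (SE 0.18). It was at 14.0, 24.0, 12.8 and 15.0 CPM in Ager-deleted mice and at 20.7, 19.9, 19.5 and 24.0 CPM in controls, so that 3 Ager-deleted mice lay below all controls and E5231 among them. Its p was 0.114 by two-sided exact permutation and 0.0700 unadjusted in edgeR's exact test, with an adjusted p of 1.

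The GTPases induced mainly by interferon-gamma were Gbp2, Gbp3, Gbp7, Iigp1, Irgm1 and Igtp, which act in the defense against pathogens held in vacuoles. Gbp2 (chromosome 3, 142620602 to 142638008) was at 37.1, 54.7, 25.3 and 28.1 CPM in Ager-deleted mice and at 30.2, 30.1, 32.9 and 33.6 CPM in controls, with means of 36.3 ± 13.3 and 31.7 ± 1.85 CPM (SD, n = 4 each) and a log2 fold change of 0.20 (SE 0.20). Igtp (Irgm3) was at 17.6, 25.2, 12.4 and 14.6 CPM in Ager-deleted mice and at 15.8, 16.1, 17.9 and 16.4 CPM in controls. In both genes E1776 and E5231 lay above or near the top of the controls and E5248 and E5568 below them. All 6 genes were highest in E5231 and 4 were lowest in E5248, and Gbp3 and Gbp7 were lowest in E5568.

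Slfn2, Slfn5 and Slfn8 belong to the Schlafen family, regulators of immune cell growth and of transfer RNA, and lie on chromosome 11. Slfn2, whose loss impairs T cell quiescence, was at 10.5, 17.3, 6.72 and 11.2 CPM in Ager-deleted mice and at 10.1, 13.6, 11.0 and 12.1 CPM in controls, a log2 fold change of -0.03 (SE 0.23). The log2 fold changes of the 3 genes lay between -0.03 and 0.03, and each was highest in E5231 and lowest in E5248.

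Of the other 10 genes, Lgals3bp, a secreted glycoprotein that binds galectin-3, had the highest level of the 48 genes. It was at 275, 381, 145 and 171 CPM in Ager-deleted mice and at 236, 278, 263 and 210.1 CPM in controls, with a log2 fold change of -0.02 (SE 0.26). Ifi35, a partner of the interferon-induced protein Nmi, was at 10.4, 13.9, 7.68 and 10.03 CPM in Ager-deleted mice and at 8.40, 8.95, 10.5 and 8.61 CPM in controls (log2 fold change 0.21, SE 0.16). The widest ratio of E5231 to E5248 in this group was 4.31 for Ifi44, and the narrowest was 1.67 for Parp14, a mono-ADP-ribosyltransferase. Ifi27l2a, Xaf1, Rtp4, Trim30a, Phf11d and Sp100 had log2 fold changes between -0.01 and 0.14, with 0 called.

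Co-variation across mice was measured against Irf7, which was chosen as a gene at the center of the response. Over the 8 mice, the Pearson r with Irf7 on the log2(CPM + 1) scale had a median of 0.930 over the other 47 genes and -0.02 over all 19469 genes, and exceeded 0.9 in 32 of the 47, against 0.647% of all genes. It was highest for Isg15 (r = 0.993, Spearman's rho = 0.976), Usp18 (r = 0.993, rho = 1), Oasl2 (r = 0.992, rho = 1), Igtp (r = 0.991, rho = 0.976) and Bst2 (r = 0.977, rho = 0.976), and lowest for Samd9l (r = 0.574). The exact permutation p of r was 9.92e-05 for Isg15, 2.48e-05 for Usp18 and Oasl2, 4.96e-05 for Igtp and 0.000273 for Bst2, and their adjusted p was 0.219, 0.121, 0.121, 0.193 and 0.241; 2.48e-05 is the smallest that 8 mice allow. After adjustment over all genes, 0 of the 47 passed (0% of all genes), while 45 had an unadjusted p under 0.05 with r above 0, as did 7.14% of all genes. Usp18 and Oasl2 were at the smallest permutation p of r that 8 mice allow and still did not pass. A gene could pass only if more genes tied at that p, so the count of 0 does not show that correlation was absent. The exact permutation p of rho for these 5 genes, adjusted over all genes, was between 0.138 and 0.249.

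**Figure D4:**
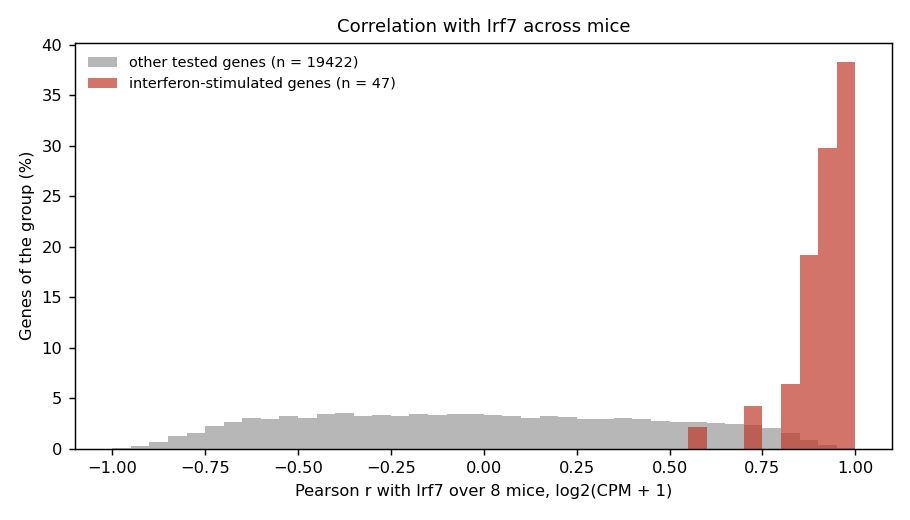
Distribution of Pearson r with Irf7 over 8 mice (x axis, log2(CPM + 1)) as percent of the genes of each group (y axis), for the 47 other interferon-stimulated genes in red and the remaining tested genes in gray. The red bars sit above 0.5, most of them above 0.8, whereas the gray bars spread on both sides of 0.

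The strength of this relation rested in part on E5231 and E5248, the mice farthest from the median of Irf7. Without both, the median r was 0.749 and r exceeded 0.9 in 7 of the 47 genes, and r was 0.963 for Isg15, 0.966 for Usp18, 0.975 for Oasl2, 0.968 for Igtp and 0.841 for Bst2. For Trim30a and Slfn2 r was then -0.42 and -0.07. With values centered on the mean of each genotype the median r was 0.947. Among the 1128 pairs of the 48 genes, the median r was 0.880, against -0.00 for all tested genes, and 0 pairs had r under 0. Without E5231 and E5248 the median over these pairs was 0.604, against -0.00 for all tested genes. The genes share the 8 libraries, and genes are not independent replicates. Of all tested genes outside the 48, the highest r with Irf7 were those of Ly6e (0.980), Shisa5 (0.980), Gm6548 (0.980), Rnf19b (0.977) and Gadd45b (0.974). Ly6e and Shisa5 were on the list of further interferon-stimulated genes, and the other 3 were on none of the lists.

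Messages for interferons themselves were close to absent. None of 21 ligand genes passed the filter, 14 had 0 counts in every mouse, and the highest count was 3, for Ifnb1 (interferon-beta) in E5231, which also held the only 2 counts of Ifng (interferon-gamma). Ifnb1 had 1 count each in the controls E5386 and E6578 and 0 elsewhere. Ifnz had 1 count each in E1776, E5231, E5248, E5386 and E6578, Ifnk 1 each in E5248, E5568 and E6578, and Ifna2, Ifna13 and Ifna16 had 1 count in 1 mouse each. These values lie at or under the floor of 3 counts, so no difference in ligand message was detectable at this depth.

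Receptors and upstream components were detected and 0 were called by either edgeR test. Of 6 receptor genes, Ifnar1 and Ifnar2 were at 48.1 to 55.9 and 24.2 to 33.5 CPM over the 8 mice, and their log2 fold changes were -0.00 (SE 0.06) and 0.00 (SE 0.09). Ifngr1 and Ifngr2 were at 39.6 to 60.4 and 37.0 to 46.0 CPM, with log2 fold changes of -0.07 (SE 0.12) and 0.00 (SE 0.08). Ifnlr1 and Il10rb, which form the interferon-lambda receptor, were at 1.60 to 2.86 and 14.9 to 24.4 CPM. The receptors varied less between E5231 and E5248 than the induced genes did, with a median ratio of 1.41. Of 10 kinase, STAT and IRF genes 0 were called. Irf1, induced by interferon-gamma, was at 13.5, 17.4, 9.42 and 11.3 CPM in Ager-deleted mice and at 12.4, 12.8, 15.0 and 15.1 CPM in controls (log2 fold change -0.10, SE 0.17). Of 13 tested genes for sensors and adaptors that lead to interferon production and of 9 tested negative regulators, 0 were called, with median log2 fold changes of -0.05 and -0.04. A further 58 tested interferon-stimulated genes had 0 called and a median log2 fold change of 0.01; 44 were highest in E5231, 39 were lowest in E5248, and their median ratio of E5231 to E5248 was 1.78.

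Markers of several cell types also differed between E5231 and E5248. All 14 microglial markers were higher in E5231 than in E5248, 11 were highest of the 8 mice in E5231 and 11 lowest in E5248, and their summed level was 2654 CPM in E5231, 1573 CPM in E5248 and 1811 to 2369 CPM in the other mice. The median ratio of E5231 to E5248 was 1.66 for microglial markers, 1.56 for 12 disease-associated microglia markers and 1.40 for 8 endothelial markers, against 2.38 for the 48 genes. For 9 tested markers of T and NK cells it was 2.24, at summed levels of 17.7 and 7.93 CPM and 10.3 to 13.9 CPM in the other mice. The chemokine gene Ccl5 of that list is also on the list of further interferon-stimulated genes, and without it the ratio was 2.00 and the sums were 11.7 and 5.87 CPM. Cd3e, a T cell receptor subunit, was at 0.620 CPM in E5231 and, at the floor of detection, 0.0847 CPM in E5248. For 8 markers of monocytes and neutrophils the ratio was 3.22, but the highest sum was in the control E5642 (922 CPM, against 825 CPM in E5231 and 468 CPM in E5248), and S100a8, a neutrophil and monocyte gene, was highest in the control E5386 at 68.9 CPM and lowest in E1776 at 6.58 CPM. For 5 erythroid markers the ratio was 1.93, and the sum was highest in the control E6578 (427 CPM, against 278 CPM in E5231 and 162 CPM in E5248). Markers of Schwann cells and of meningeal fibroblasts, 7 of each, went the other way, with ratios of 0.604 and 0.653. Neuronal markers had a ratio of 0.823, with 0 of 8 highest in E5231, and the ratios for astrocytes and oligodendrocytes were 1.11 and 1.04. Of 7 tested markers of plasmacytoid dendritic cells, a major source of interferon-alpha, 2 were highest in E5231 and 4 were lowest in E5248. They include Bst2 of the 48 genes and the microglial gene Siglech, and their sum ranged from 216 to 297 CPM. Without Bst2, 1 of 6 was highest in E5231 and 3 were lowest in E5248. The sum was then 234 CPM in E5231, 199 CPM in E5248 and highest in the control E5386 at 260 CPM. The part of these cell types in the levels of the 48 genes was not tested.

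**Figure D5:**
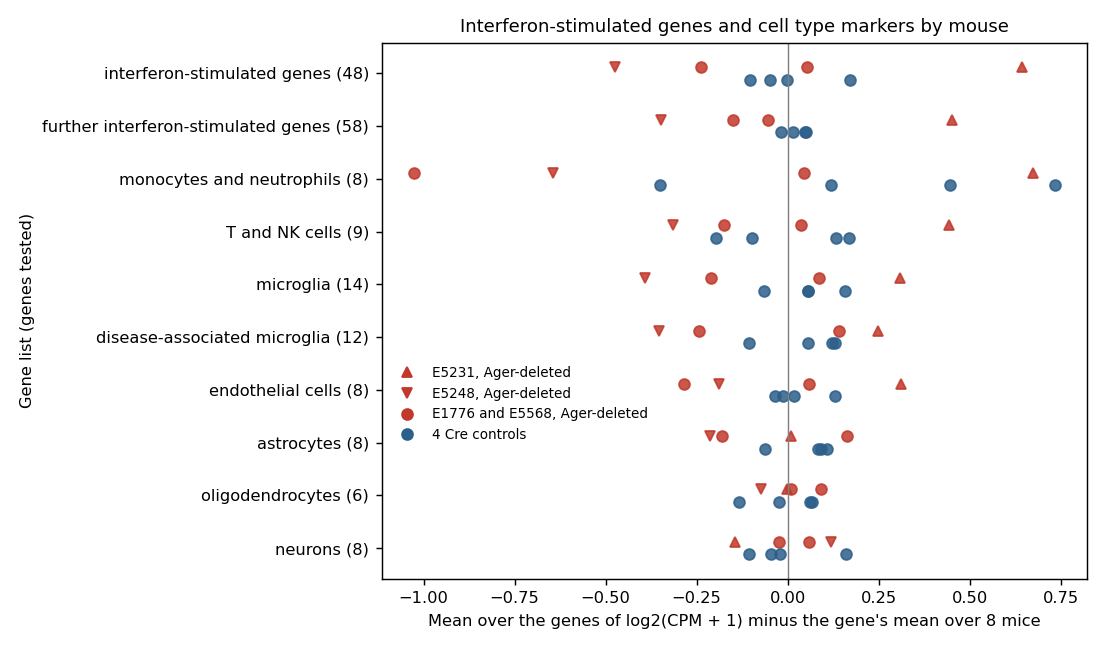
Mean over the genes of each list (y axis, with the number of genes tested) of log2(CPM + 1) minus the mean of the gene over the 8 mice (x axis), with 1 symbol per mouse, Ager-deleted in red and Cre control in blue. E5231 and E5248 stand at 0.64 and -0.47 for the 48 interferon-stimulated genes and at 0.31 and -0.39 for microglial markers.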

How the data were processed

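RNA-seq libraries of 8 mice, 4 per genotype by the sample labels, were analysed from the deposited tables; no replicates were pooled. The authors trimmed reads (Trimmomatic 0.36), aligned them to mm10 (STAR 2.7.3a) and deposited raw counts per gene (featureCounts, Subread 1.6.3, GENCODE M25); the strand setting is not given in the sources used here. The authors also deposited log2 TMM-normalized CPM values, which were recomputed from the counts to within 4.78e-06 and used for that check only. Counts were filtered with filterByExpr (minimum 10 counts), TMM-normalized and tested with edgeR 4.0.16 by the exact test named in the study's methods; log2 fold changes, standard errors and 95% intervals are from the quasi-likelihood fit, with 6 residual degrees of freedom. Adjustment followed Benjamini and Hochberg over all 19470 tested genes. Single genes were compared by exact permutation over the 70 assignments of the mice, and correlations over the 40320 orders, on log2(CPM + 1). Nothing in the labels marks a batch.

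The 48 genes, the gene lists and the tests were chosen with earlier results of these data known. Values by mouse are given for Irf7, Irf9 and Stat2, the member of each role highest per kilobase, the 6 with the smallest p, the extremes of fold change and the 5 with the highest r with Irf7. Positions are from GENCODE M21 on GRCm38, matched by symbol for all 48. The tests were first tested on simulated data with known changes. Alternatives were other normalizations, filters, dispersions, DESeq2 1.42.0, limma-voom (limma 3.58.1), a threshold of 0.10, removal of skeletal muscle genes or of the mice that hold them, a skeletal muscle covariate and each mouse left out; leaving out E5231 and E5248 together, and normalizations for the counts by mouse, were added after the data were seen. The values of 1 gene of the signaling pathway, outside the 48, are not reported here.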

Additional observations from a re-analysis of the deposited data

How the results depend on the processing

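Of the 48 genes, 0 were called under each of the 20 alternatives of the exact test and the 18 of the quasi-likelihood test. The main fits called 0.0719% and 0.00514% of all tested genes, so 0 of 48 is near the share over all genes. Shares over all genes under the alternatives are not given here, so these counts describe nothing particular to the 48 genes. The median log2 fold change of the 48 genes was 0.0055 with limma-voom. It ran from -0.21 to 0.17 with each mouse left out (0.06 with all), and was -0.03 without the controls E5386 and E5642, -0.04 with the skeletal muscle covariate and -0.09 without E5231 and E5248. Its sign thus changed under several alternatives. All of these moved by less than the SD of the mean deviation within genotypes (0.352). That SD is a spread among single mice and is larger than the median itself, so it does not show that the median was stable. Genes without overlap between genotypes numbered 0 to 4 with each mouse left out, where 4.99% to 11% of all tested genes did not overlap, and 1 without E5231 and E5248, where 17.4% did not. The median r with Irf7 ran from 0.858 to 0.951 with each mouse left out, and was 0.881 as Spearman's rho and 0.749 without E5231 and E5248. Genes with r above 0.9 numbered 16 to 37 with each mouse left out, 18 by rho and 7 without both mice. The ISRE was found in 13 promoters with the longer motif. E5231 remained highest in 47 genes under the 3 other normalizations. With all mice, the log2 fold changes of Irf7, Oas2 and Isg15 were 0.41, 0.38 and 0.29 (SE 0.44, 0.32 and 0.32). None of these was clearly above 0. Log2 fold changes of named genes changed sign under several alternatives, including those of Irf7, Oas2 and Isg15. Without E5231 and E5248 they were -0.0657 for Irf7, -0.000248 for Irf9, -0.121 for Oasl2, -0.0562 for Eif2ak2, -0.146 for Mx2, -0.122 for Ifitm3, -0.169 for Bst2, -0.0322 for Igtp and -0.0995 for Usp18. Without E5386 and E5642 they were -0.0719 for Eif2ak2, -0.0466 for Mx2 and 0.0323 for Lgals3bp. With the covariate they were -0.0146 for Ifit3, -0.0774 for Eif2ak2, -0.0980 for Mx2 and 0.00266 for Lgals3bp. With limma-voom they were -0.0174 for Eif2ak2, -0.0512 for Mx2 and -0.00942 for Ifitm3. For Eif2ak2 they were -0.00143 with RLE factors, -0.000231 with at least 1 CPM in 4 mice and -0.00146 with DESeq2, and for Lgals3bp 0.00548 with library size only. With each mouse left out, the values ran from -0.299 to 0.668 for Irf7, -0.108 to 0.157 for Irf9, -0.0129 to 0.157 for Stat2, -0.145 to 0.349 for Ifit3, -0.273 to 0.394 for Oasl2, -0.147 to 0.1004 for Eif2ak2, -0.287 to 0.172 for Mx2, -0.265 to 0.251 for Ifitm3, -0.0696 to 0.335 for Gbp2, -0.300 to 0.155 for Slfn2, -0.325 to 0.159 for Lgals3bp, -0.0110 to 0.584 for Oas2, -0.317 to 0.405 for Bst2, -0.155 to 0.211 for Igtp, -0.264 to 0.348 for Usp18 and -0.153 to 0.501 for Isg15; 26 of 160 values for the named genes changed sign, 14 of them without E5231. The cause of these changes was not tested. No paired analysis was possible because the mice carry IDs and no replicate numbers shared between genotypes. Each of the 48 genes had at least 25 counts per mouse, and whether depth limited them was not tested. The ligand genes lay at or under the floor of 3 counts, where absence of message and limited depth cannot be told apart.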
